A study of Mus musculus with 2 samples.

Results

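The mitochondrial SLC25 carriers were compared between MHCII+ and MerTK- macrophages sorted from mouse hearts after ischemia–reperfusion (IR), in which blood flow to the heart muscle is stopped and then let back. The carriers were taken as every named probe set whose gene symbol begins with Slc25a and a number, 1 probe set per gene. This gave 46 of the 19505 genes measured, and 33 of the 46 were above an intensity floor on at least 1 array. Each population had 1 array, so replicate error is unknown and no p-value is given. Every value below is a log2 intensity as deposited, and every difference is the MHCII+ value minus the MerTK- value.

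SLC25 proteins sit in the inner mitochondrial membrane, which small charged molecules do not cross on their own. Most work as exchangers, letting in one metabolite for another, and the family handles adenine nucleotides, phosphate, citrate cycle acids, acylcarnitines, amino acids, cofactors and iron. In macrophages citrate export feeds fatty acid synthesis, and carnitine–acylcarnitine exchange brings fatty acids to oxidation. A few relatives lie in the outer membrane or in peroxisomes, and several have no settled substrate.

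Both populations came from 10-week-old male C57BL/6 wild-type mice, and both were taken after IR, so neither is an uninjured control. Heart cells were first gated as CD45+CD11b+, a gate for leukocytes that carry the myeloid integrin CD11b, and then sorted as MHCII+ or as MerTK- macrophages. The methods do not state that MHCII+ cells were also gated on MerTK, the receptor through which macrophages bind dying cells. Each array held cells pooled over several hearts, and the sources used here do not give the interval between IR and sorting. The comparison asks which transcripts set apart a population counted by the study among resident, MerTK-bearing macrophages from MerTK- macrophages of the injured heart.

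The sort labels were checked on their own genes. Mertk was 8.77 in MHCII+ and 5.97 in MerTK- macrophages, and H2-Aa, a chain of an MHC class II molecule, was 16.71 in MHCII+ and 8.39 in MerTK-. H2-Ab1, the partner chain, was 16.95 in MHCII+ and 10.14 in MerTK-. The 7 pan-macrophage genes above the floor, such as Csf1r and Adgre1, lay between 12.2 and 18.5 in MHCII+ and between 11.4 and 18.5 in MerTK-, and none was 2-fold apart. These 7 include Ptprc and Itgam, the genes of CD45 and CD11b, on which the cells were gated. Genes of other cells differed between the arrays. All 11 neutrophil genes above the floor, of 13 measured, were higher in MerTK- by 2-fold or more (9 against the floor), and their median was -1.75. Camp and Mpo were under the floor on both arrays. Neutrophil genes were also bright on both arrays. On the log2 scale their summed intensity was 19.26 in MHCII+ and 20.89 in MerTK-. The pan-macrophage genes summed to 19.78 in MHCII+ and 19.58 in MerTK-. Of 8 natural killer cell genes above the floor 7 passed 2-fold towards MerTK- (6 against the floor), and 1, Klrd1, towards MHCII+. Of 7 endothelial genes 3 passed 2-fold towards MerTK- and none towards MHCII+, and of 4 fibroblast genes 2 did so towards MerTK- and none towards MHCII+. Of 6 dendritic cell genes above the floor 3 passed 2-fold towards MHCII+ and 1, Itgae, towards MerTK- (3 and 0 against the floor). Flt3, Zbtb46, Xcr1 and Clec9a, the other 4 of 10 measured, were under the floor on both arrays. All 3 B cell genes above the floor, of 5 measured, passed 2-fold towards MHCII+ (1 against the floor). Neither of 2 T cell genes above the floor was 2-fold apart. The part of such cells in the carrier values was not tested. In bulk RNA, fewer cells of a type and less RNA per cell cannot be told apart.

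The floor was the 95th percentile of 1452 olfactory, vomeronasal and taste receptor genes on the same array, 4.23 for MHCII+ and 4.67 for MerTK-. A gene counted as above it where the brighter of its values passed its own array's floor. Of 5222 negative controls, 3134 in MHCII+ and 2776 in MerTK- also lay above this floor, so passing it does not show expression. Of the 33 carriers above the floor, 5 were higher in MHCII+ macrophages by 2-fold or more, which is 15.2% of the 33 beside 13.4% of all 10521 genes above the floor. In the other direction 1 carrier, or 3.03%, was higher in MerTK- macrophages by 2-fold or more, beside 6.89% of all genes. The family's share of 2-fold differences thus lay near that of the whole array towards MHCII+, and the count towards MerTK- was a single gene. The 5 carriers were Slc25a10, Slc25a45, Slc25a25, Slc25a1 and Slc25a17, and the 1 carrier was Slc25a2. The other 27 differed by less than 2-fold, and none of the 33 reached 3-fold.

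**Figure D1:**
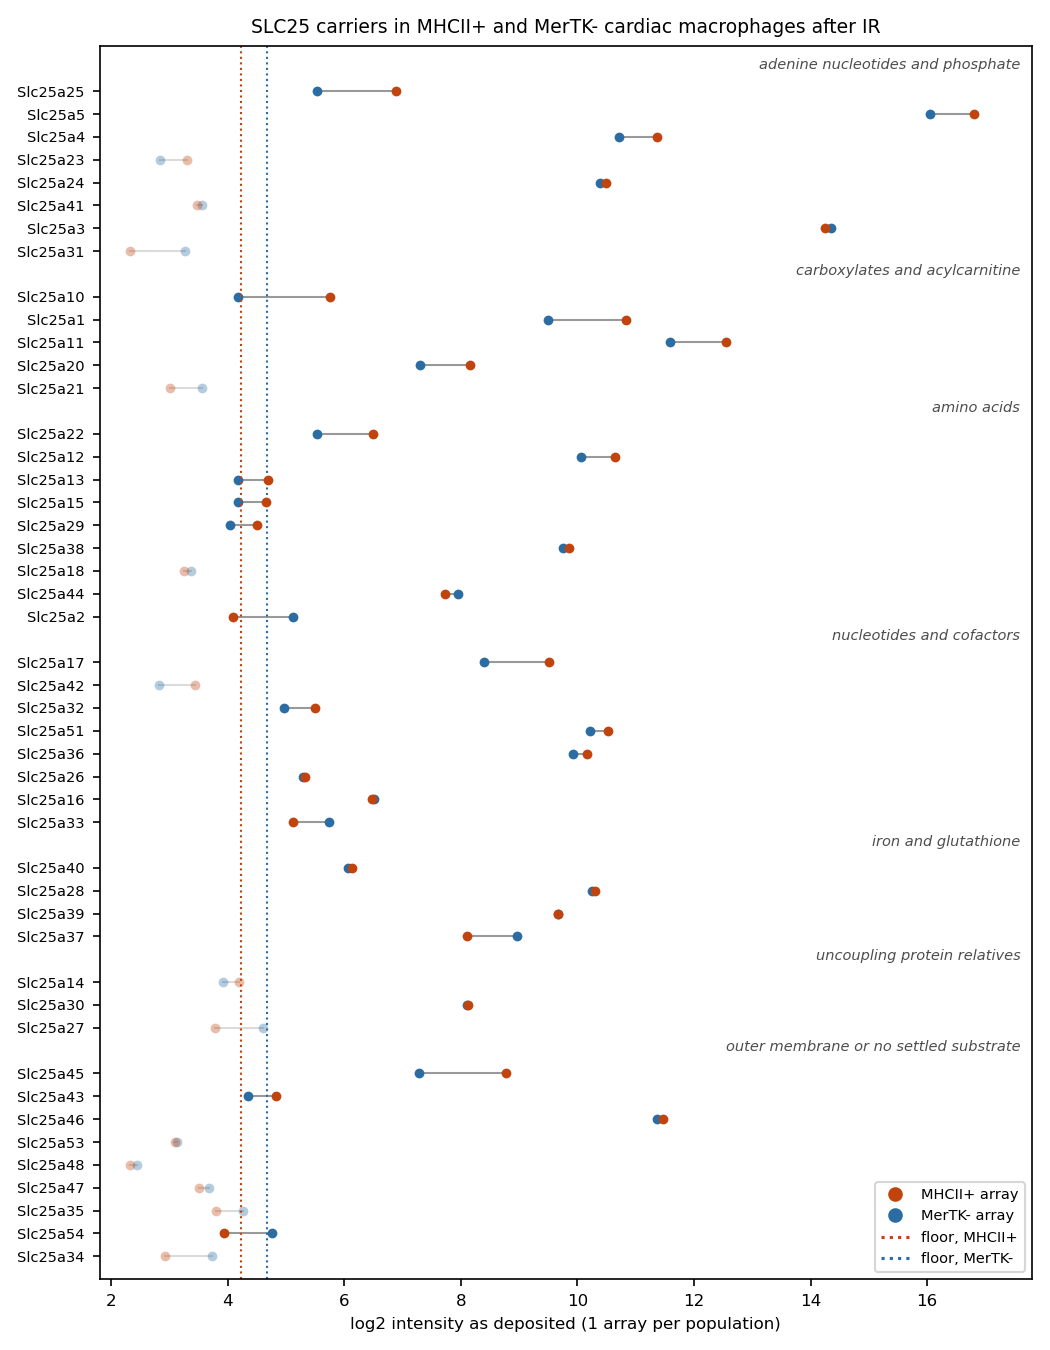
Deposited log2 intensity (horizontal axis) of the 46 measured SLC25 carriers, grouped by role (vertical axis), with 1 point for the MHCII+ array and 1 for the MerTK- array per gene and the floors of 4.23 and 4.67 drawn as lines. The points of a carrier lie close to each other for most genes, and 13 carriers have both points under the floors.

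Across the 33 carriers the differences ran from -1.03 to 1.58. Of these, 25 were higher in MHCII+ and 8 higher in MerTK-, with a median of 0.30, which turned to -0.15 with the arrays centred on housekeeping genes. The median over all genes above the floor was 0.15. For 7 of the 33, the lower value was itself under its floor, and with such values set to the floor the median was 0.10. Over all 46 measured carriers the median was 0.10, against -0.03 over all 19505 genes. On the deposited zero point the bright carriers leaned one way. Of 11 carriers whose mean of both arrays was at least 10, 10 were higher in MHCII+, with a median of 0.30, while 1473 of 2784 genes of that brightness were higher in MHCII+, with a median of 0.06. Only 1 of those 11 (9.09%), Slc25a1, passed 2-fold towards MHCII+ and none towards MerTK-. Of all genes of that brightness 11.4% passed it towards MHCII+ and 9.05% towards MerTK-. The leaning was thus made of small differences that 1 array per group cannot set against an error. Of 12 carriers with a mean between 6 and 10, 3 were higher in MHCII+ by 2-fold or more and none in MerTK-, with a median of 0.09. Of all 4275 genes of that brightness 16.7% were higher in MHCII+ by 2-fold or more and 5.78% in MerTK-, with a median of 0.22. Of 10 carriers with a mean under 6, 1 passed 2-fold in each direction, with a median of 0.47, beside 10.8% of 3462 such genes towards MHCII+ and 6.53% towards MerTK-, with a median of 0.12.

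**Figure D2:**
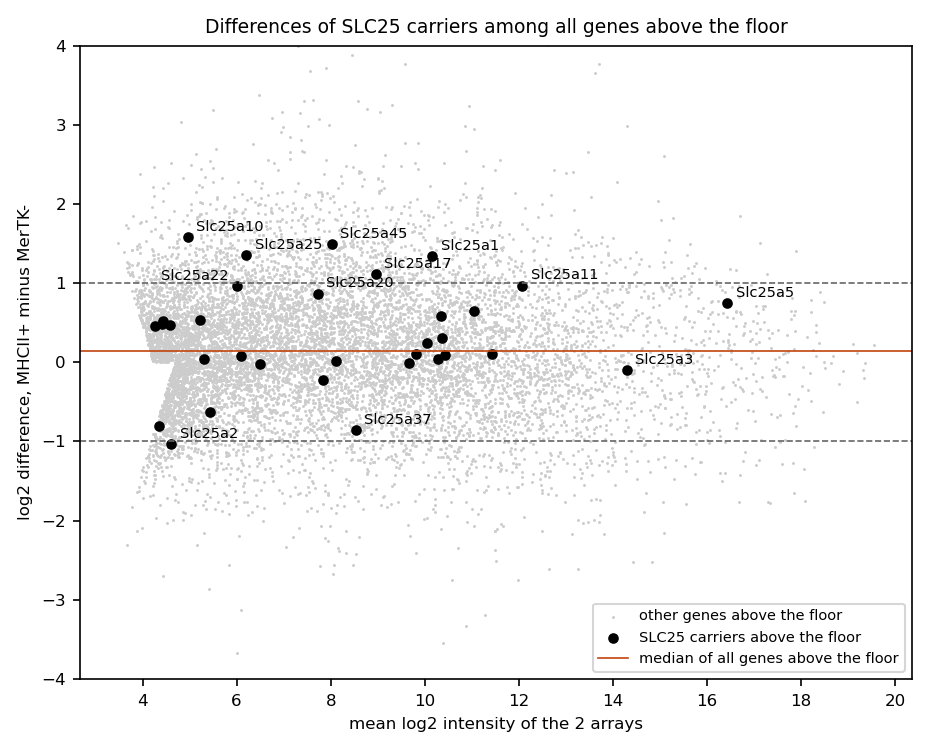
Difference in log2 intensity, MHCII+ minus MerTK- (vertical axis), against the mean log2 intensity of the arrays (horizontal axis), for the 10521 genes above the floor (grey) and the 33 carriers among them (black). The vertical axis is cut, and 21 genes lie beyond it. The carriers lie between -1.03 and 1.58, inside the cloud of all genes, and 5 lie above the upper 2-fold line.

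Promoters are shown for the 5 carriers at least 2-fold higher in MHCII+, since these passed 2-fold in that direction. Each window holds the 250 bases before a gene start in RefSeq (GRCm38.p6), written 5′ to 3′ along the strand of the gene; where RefSeq lists several starts the first is shown. Capitals mark matches on either strand to any of 6 motifs chosen after the values were known: the E-box CACGTG, the cyclic AMP response element TGACGTCA, the AP-1 site TGANTCA, the GC box GGGCGG, the CCAAT box CCAAT and the NRF1 motif. Slc25a1 lies at chr16:17928220-17928469 on the minus strand, Slc25a10 at chr11:120491587-120491836 on the plus strand, Slc25a17 at chr15:81360766-81361015 on the minus strand, Slc25a25 at chr2:32451471-32451720 on the minus strand, and Slc25a45 at chr19:5877572-5877821 on the plus strand.
Slc25a1: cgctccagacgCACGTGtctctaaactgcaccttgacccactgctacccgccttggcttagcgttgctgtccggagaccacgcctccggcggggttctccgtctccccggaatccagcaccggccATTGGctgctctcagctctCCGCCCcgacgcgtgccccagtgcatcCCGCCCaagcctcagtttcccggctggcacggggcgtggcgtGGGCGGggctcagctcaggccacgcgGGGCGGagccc
Slc25a10: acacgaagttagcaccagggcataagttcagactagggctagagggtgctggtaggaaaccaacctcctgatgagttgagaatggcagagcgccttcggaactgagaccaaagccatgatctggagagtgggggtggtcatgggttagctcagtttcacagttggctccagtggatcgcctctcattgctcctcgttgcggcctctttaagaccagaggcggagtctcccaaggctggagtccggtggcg
Slc25a17: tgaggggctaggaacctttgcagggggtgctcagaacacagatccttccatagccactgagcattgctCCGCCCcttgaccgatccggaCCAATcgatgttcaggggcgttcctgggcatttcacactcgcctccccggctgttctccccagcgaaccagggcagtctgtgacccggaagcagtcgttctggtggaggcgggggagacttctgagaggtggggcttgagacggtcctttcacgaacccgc
Slc25a25: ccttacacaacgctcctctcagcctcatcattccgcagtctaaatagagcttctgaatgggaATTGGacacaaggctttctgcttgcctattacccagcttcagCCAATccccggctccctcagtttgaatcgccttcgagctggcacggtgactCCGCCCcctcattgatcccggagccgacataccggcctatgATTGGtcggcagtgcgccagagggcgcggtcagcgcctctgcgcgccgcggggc
Slc25a45: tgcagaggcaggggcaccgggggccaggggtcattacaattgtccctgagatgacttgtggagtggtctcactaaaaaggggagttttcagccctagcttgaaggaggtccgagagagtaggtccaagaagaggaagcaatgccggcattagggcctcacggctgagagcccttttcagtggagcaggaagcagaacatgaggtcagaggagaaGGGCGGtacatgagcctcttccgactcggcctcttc
These windows share no single motif. The Slc25a1 window held 1 E-box, 4 GC boxes and 1 CCAAT box, and the Slc25a10 window held none of the motifs. Slc25a17 had 1 GC box and 1 CCAAT box, Slc25a25 had 1 GC box and 3 CCAAT boxes, and Slc25a45 had 1 GC box. A different listed start of Slc25a25, at chr2:32424067-32424316, held 1 cyclic AMP response element.

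Over the family, 36 of the 46 carriers had a RefSeq window, 46 windows in all, and windows of one gene can overlap. The E-box, a site bound by MYC and related factors, was in 8 of the 46 windows (17.4%), from 7 genes, and in 6.02% of all 32851 windows. GC boxes were in 69.6% of the carrier windows and 32.7% of all windows, and CCAAT boxes in 45.7% of the carrier windows and 33.8% of all windows. The rarer motifs were the cyclic AMP response element, in 4.35% of the carrier windows and 1.55% of all windows, the AP-1 site, in 4.35% of the carrier windows and 6.75% of all windows, and the NRF1 motif, in 4.35% of the carrier windows and 3.74% of all windows, each in 2 of the 46. Kept to genes above the floor, with 31 carrier windows and 10868 windows of all such genes, the shares were 16.1% of carrier windows and 8.35% of all for the E-box, 71.0% of carrier windows and 54.5% of all for the GC box, and 45.2% of carrier windows and 35.0% of all for the CCAAT box. For the AP-1 site they were 6.45% of carrier windows and 4.90% of all, for the cyclic AMP response element 6.45% of carrier windows and 2.48% of all, and for the NRF1 motif 3.23% of carrier windows and 8.01% of all, so the order for the AP-1 site and the NRF1 motif turned with the set of genes. Of the 5 carriers at least 2-fold higher in MHCII+, only Slc25a1 had an E-box. A match is a description of the letters and not a bound site.

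The carriers of carboxylates and acylcarnitine had the highest median of the roles. Slc25a1, the citrate carrier that sends citrate to the cytosol for fatty acid and sterol synthesis, was 10.83 in MHCII+ and 9.49 in MerTK-, 2.53-fold higher in MHCII+. Slc25a10, which exchanges malate or succinate for phosphate, was 5.76 in MHCII+ and 4.18 in MerTK-. The MerTK- value of Slc25a10 was under its floor, and against that floor the gene was 2.12-fold higher in MHCII+. Slc25a11, the oxoglutarate–malate exchanger of the malate–aspartate shuttle, was 12.56 in MHCII+ and 11.59 in MerTK-, a difference of 0.97. Slc25a20, the carnitine–acylcarnitine translocase needed for fatty acid oxidation, was 8.16 in MHCII+ and 7.29 in MerTK-, a difference of 0.87. All 4 of these were thus higher in MHCII+ as deposited, with a median difference of 1.15, or 1.02 with the value under the floor set to it. Of the 4, 2 passed 2-fold, beside 13.4% of all genes above the floor. Centred on the housekeeping genes, Slc25a1 was at 0.89, short of 2-fold. Slc25a10, with its MerTK- value set to the floor, was then at 0.63. Slc25a21, the oxodicarboxylate carrier, was under the floor on both arrays.

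Genes of the same routes were read beside them, from lists that were drawn up with earlier results of these data known. Of 8 malate–aspartate shuttle and citrate genes above the floor, 1 was higher in MHCII+ by 2-fold or more and none in MerTK-, with a median of 0.70. It was Idh2, the mitochondrial NADP-linked isocitrate dehydrogenase, at 9.76 in MHCII+ and 8.38 in MerTK-. Of 8 acylcarnitine and fatty acid oxidation genes above the floor, 1 was higher in MHCII+ by 2-fold or more and none in MerTK-, with a median of 0.58. It was Acadvl, the very long-chain acyl-CoA dehydrogenase, at 9.27 in MHCII+ and 8.27 in MerTK-.

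Of the carriers of adenine nucleotides and phosphate, 5 of 8 were above the floor, and 4 of the 5 were higher in MHCII+, with a median of 0.65. Slc25a25, one of the calcium-regulated carriers that exchange ATP-magnesium for phosphate, was 6.88 in MHCII+ and 5.53 in MerTK-, 2.55-fold higher in MHCII+ and the only one of the 5 past 2-fold. The ADP/ATP carriers bring ADP in and send ATP out. Slc25a5, the form common in dividing and blood cells, was 16.80 in MHCII+ and 16.06 in MerTK-, a difference of 0.74. Its probes may take up RNA of near-identical copies, which makes its values uncertain. Slc25a4, the form that prevails in heart and muscle, was 11.37 in MHCII+ and 10.72 in MerTK-, a difference of 0.65. Of 12 cardiomyocyte genes measured, 9 were above the floor. Of these 9, 5 were higher in MerTK- by 2-fold or more and none in MHCII+, with a median of -1.13. Their summed intensity was 9.66 in MHCII+ and 11.17 in MerTK- on the log2 scale, and Myl7, Nppa and Ryr2 were under the floor on both arrays. The part of cardiomyocytes in the Slc25a4 values was not tested.

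The remaining carriers of this role were close between the populations. Slc25a3, the phosphate carrier that supplies ATP synthase, was 14.25 in MHCII+ and 14.34 in MerTK-, and Slc25a24, another ATP-magnesium/phosphate carrier, was 10.49 in MHCII+ and 10.39 in MerTK-. Slc25a23 and Slc25a41, of the same ATP-magnesium type, and Slc25a31, the ADP/ATP carrier of germ cells, were under the floor on both arrays.

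Among the carriers of amino acids, 8 of 9 were above the floor, with none higher in MHCII+ by 2-fold or more and 1 higher in MerTK-. Slc25a22, a glutamate carrier, was 6.49 in MHCII+ and 5.53 in MerTK-, a difference of 0.96, which was just short of 2-fold. Slc25a12 and Slc25a13 are the aspartate–glutamate exchangers of the malate–aspartate shuttle. Slc25a12 was 10.65 in MHCII+ and 10.06 in MerTK-, a difference of 0.59, while Slc25a13 was 4.69 in MHCII+ and 4.17, under the floor, in MerTK-. Slc25a38, the glycine carrier that supplies heme synthesis, was 9.85 in MHCII+ and 9.75 in MerTK-. Slc25a44, a carrier of branched-chain amino acids, was 7.73 in MHCII+ and 7.95 in MerTK-.

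The carriers of ornithine and basic amino acids were dim. Slc25a2, an ornithine carrier in humans, was 4.09 in MHCII+, under the floor, and 5.12 in MerTK-. The values were 1.03 apart as deposited, and against the floor the gene was 1.86-fold higher in MerTK-. The only 2-fold call towards MerTK- in the family thus rested on a value under the floor. Slc25a15, the ornithine–citrulline exchanger of the urea cycle, was 4.66 in MHCII+ and 4.18, under the floor, in MerTK-. Slc25a29, a carrier of basic amino acids, was 4.50 in MHCII+ and 4.04, under the floor, in MerTK-. With the values under the floor set to it, the median of the 8 amino acid carriers was 0.00, against 0.47 as deposited, and Slc25a18, a glutamate carrier, was under the floor on both arrays.

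Enzymes of ornithine and glutamate use lay on both sides. Of 6 above the floor, 3 were higher in MHCII+ by 2-fold or more and 1 in MerTK-, with a median of 0.94. Arg1, the cytosolic arginase that makes ornithine from arginine, was 15.98 in MHCII+ and 13.95 in MerTK-, while Arg2, the mitochondrial arginase, was 12.59 in MHCII+ and 14.58 in MerTK-. Odc1, which turns ornithine into putrescine, was 11.83 in MHCII+ and 10.69 in MerTK-, and Asl, argininosuccinate lyase, was 9.21 in MHCII+ and 8.06 in MerTK-. The arginase of the cytosol and that of the mitochondria thus lay on opposite sides.

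**Figure D3:**
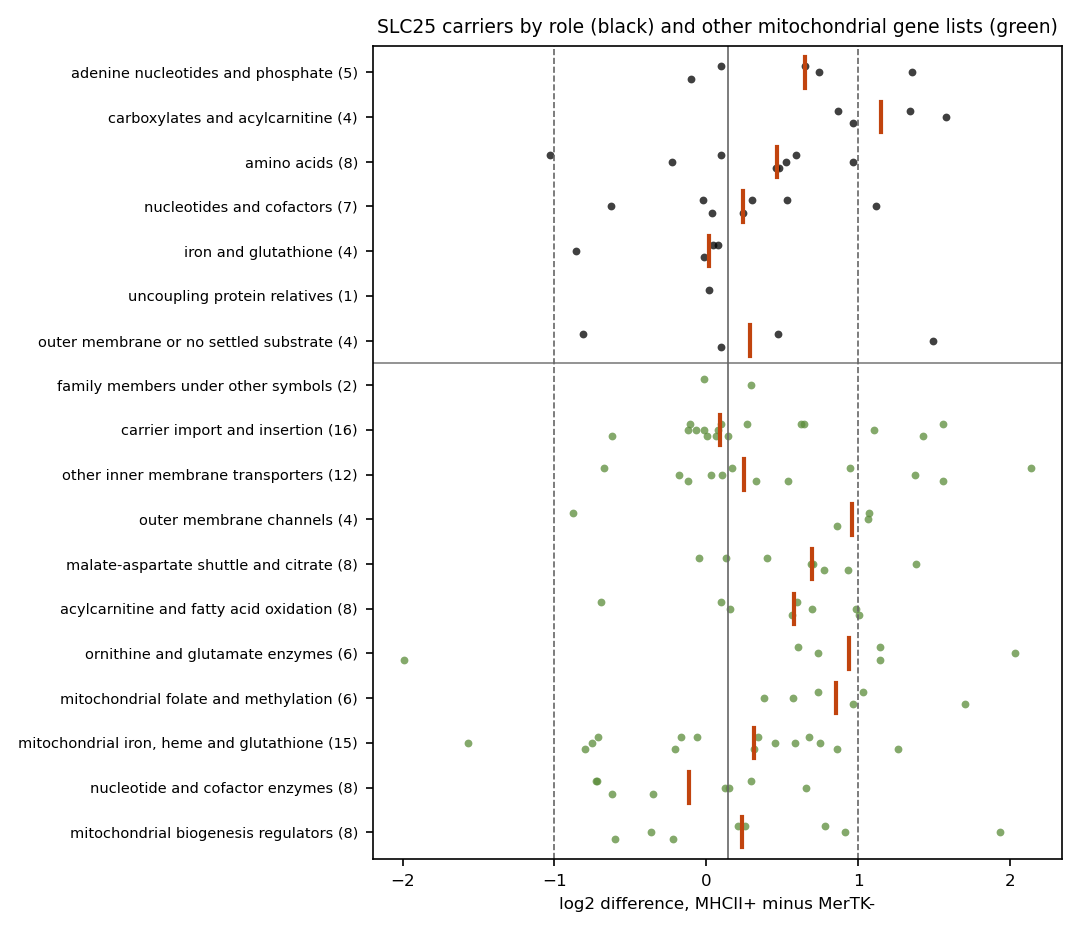
Differences in log2 intensity, MHCII+ minus MerTK- (horizontal axis), of the 33 carriers above the floor, in rows by role (vertical axis, black points). Green points are 11 other lists of genes, mostly but not all mitochondrial. Bars give row medians, except for the uncoupling protein relatives and the family members under other symbols, which have no bar. The median of all genes above the floor is a solid line and 2-fold is drawn as broken lines. The 4 carboxylate and acylcarnitine carriers all lie above 0, with a median of 1.15. Of the 4 iron and glutathione carriers 3 lie near 0, with Slc25a37 apart at -0.86 as deposited. It was at -1.31 centred on the housekeeping genes and at 0.08 centred on the hybridization controls.

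The carriers of nucleotides and cofactors had 7 of 8 members above the floor, 1 of them higher in MHCII+ by 2-fold or more and none in MerTK-, with a median of 0.24. Slc25a17, a peroxisomal carrier of coenzyme A, FAD and NAD, was 9.51 in MHCII+ and 8.39 in MerTK-, 2.17-fold higher in MHCII+ as deposited and under 2-fold in 3 of the 4 other scalings. Slc25a32, a carrier of folate and FAD, was 5.50 in MHCII+ and 4.97 in MerTK-, a difference of 0.53. Slc25a51, which takes NAD into human mitochondria, was 10.52 in MHCII+ and 10.22 in MerTK-. The pyrimidine nucleotide carriers differed in sign from each other. Slc25a36 was 10.17 in MHCII+ and 9.93 in MerTK-, while Slc25a33 was 5.11 in MHCII+ and 5.74 in MerTK-, a difference of -0.63. Slc25a26, the carrier of S-adenosylmethionine, was 5.33 in MHCII+ and 5.30 in MerTK-, and Slc25a16, linked to coenzyme A, was 6.48 in MHCII+ and 6.50 in MerTK-. Slc25a42, a coenzyme A carrier, was under the floor on both arrays.

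Around these carriers, mitochondrial folate and methylation genes had 6 members above the floor, of which 2 were higher in MHCII+ by 2-fold or more and none in MerTK-, with a median of 0.85. Shmt2, which takes the one-carbon unit from serine, was 7.74 in MHCII+ and 6.04 in MerTK-. Gcsh, a protein of the glycine cleavage system, was 10.44 in MHCII+ and 9.41 in MerTK-. Of 8 other nucleotide and cofactor genes above the floor none was 2-fold apart in either direction, with a median of -0.11.

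Of the 4 carriers of iron and glutathione, all above the floor, none was 2-fold apart as deposited. Slc25a37 (mitoferrin 1), the iron importer that red cell precursors depend on, was 8.10 in MHCII+ and 8.96 in MerTK-. The difference of -0.86 was the lowest of the carriers with both values above the floor. It was past 2-fold centred on all genes above the floor (-1.004), centred on the housekeeping genes (-1.31) and after quantile normalization (-1.10). Centred on the hybridization controls it was 0.08. Its relative Slc25a28 (mitoferrin 2), the importer of other cells, was 10.29 in MHCII+ and 10.25 in MerTK-. Slc25a39, which brings glutathione into mitochondria, was 9.66 in MHCII+ and 9.67 in MerTK-, and Slc25a40, its relative, was 6.14 in MHCII+ and 6.06 in MerTK-. Slc25a37 therefore stood alone in this role.

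Neutrophil genes lay in the same direction as Slc25a37. Summed over the 11 above the floor, their intensity was 19.26 in MHCII+ and 20.89 in MerTK- on the log2 scale. Of 4 erythroid genes measured under their symbols, 1 was above the floor, at a difference of -0.57, and Alas2, Epb42 and Klf1 were under it on both arrays. The part of neutrophils and red cell precursors in the Slc25a37 values was not tested. Of 15 iron, heme and glutathione genes above the floor, 1 was higher in each population by 2-fold or more, with a median of 0.31. Prdx3, the mitochondrial peroxiredoxin, was 8.62 in MHCII+ and 7.35 in MerTK-. Gclm, a subunit of the enzyme that starts glutathione synthesis, was 11.18 in MHCII+ and 12.75 in MerTK-.

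Among the relatives of the uncoupling proteins only Slc25a30 was above the floor, at 8.11 in MHCII+ and 8.10 in MerTK-, and Slc25a14 and Slc25a27 were under it on both arrays. Of the carriers of the outer membrane or with no settled substrate, 4 of 9 were above the floor. Slc25a45, a carrier of uncertain substrate, was 8.77 in MHCII+ and 7.28 in MerTK-, 2.82-fold higher in MHCII+ and, of the carriers with both values above the floor, the one furthest apart. Slc25a46, an outer membrane protein tied to mitochondrial shape, was 11.47 in MHCII+ and 11.37 in MerTK-. Slc25a43 was 4.83 in MHCII+ and 4.35, under the floor, in MerTK-, and Slc25a54 was 3.94, under the floor, in MHCII+ and 4.75 in MerTK-. Slc25a34, Slc25a35, Slc25a47, Slc25a48 and Slc25a53 were under the floor on both arrays.

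Altogether 13 of the 46 carriers were under the floor on both arrays, with values between 2.32 and 4.60. Several of them are known from other tissues, such as Slc25a31 from testis, Slc25a47 from liver and Slc25a27 from brain. Slc25a52 was not analysed here. Family members listed under other symbols numbered 5, and 4 of them were measured under their symbols. Ucp2 was not among these 4 and has no value here. Mtch1 and Mtch2, outer membrane relatives, were above the floor and neither was 2-fold apart. Ucp1 and Ucp3, the uncoupling proteins of brown fat and muscle, were under the floor on both arrays.

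SLC25 precursors enter mitochondria through the outer membrane pore and the TIM22 pathway of the inner membrane. Of 16 genes of this import route above the floor, 3 were higher in MHCII+ by 2-fold or more and none in MerTK-, with a median of 0.09. Tomm40, the pore, was 8.69 in MHCII+ and 7.26 in MerTK-, and Timm10, a chaperone between the membranes, was 6.33 in MHCII+ and 5.22 in MerTK-. Agk, a lipid kinase that is also part of TIM22, was 5.55 in MHCII+ and 3.99, under the floor, in MerTK-, and against the floor it was not 2-fold apart, which leaves 2 of the 3.

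The carriers work beside transporters outside the family. Of 4 outer membrane genes, the VDAC channels and Tspo, all above the floor, Vdac1 was 10.31 in MHCII+ and 9.24 in MerTK- and Vdac3 was 12.88 in MHCII+ and 11.81 in MerTK-, both at least 2-fold higher in MHCII+, and the group's median was 0.96. The VDAC channels let metabolites through the outer membrane to the carriers. Of 12 other inner membrane transporters above the floor, 3 were higher in MHCII+ by 2-fold or more and none in MerTK-, with a median of 0.25. Sfxn1, a serine transporter, was 10.10 in MHCII+ and 7.96 in MerTK-, and its relative Sfxn3 was 8.07 in MHCII+ and 6.51 in MerTK-. Abcb8, an ATP-driven transporter, was 5.68 in MHCII+ and 4.31, under the floor, in MerTK-. Among 8 mitochondrial biogenesis regulators above the floor only Myc, at 12.37 in MHCII+ and 10.43 in MerTK-, was at least 2-fold apart, and the median was 0.23. Over all 93 genes of these lists above the floor, each counted once, 17 (18.3%) were higher in MHCII+ by 2-fold or more. Towards MerTK- 2 (2.15%) passed 2-fold, and the median was 0.33. Of all 10521 genes above the floor, 13.4% passed 2-fold towards MHCII+ and 6.89% towards MerTK-, with a median of 0.15.

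The zero point of the comparison bears on every count. The 4 hybridization controls, bacterial transcripts added at set amounts, were 0.75 to 1.14 lower on the MHCII+ array. Of 23 housekeeping genes listed, 19 were measured under their symbols, all above the floor, and their median lay 0.45 above 0. Their differences were spread from -0.38 to 1.53. By 2-fold or more, 7 of the 19 (36.8%) were higher in MHCII+ and 0 in MerTK-, so this reference was not itself level between the arrays. Centred on the housekeeping genes, 2 carriers were higher in MHCII+ by 2-fold or more and 4 in MerTK-, with a median of -0.15; centred on the hybridization controls, 22 were higher in MHCII+ by 2-fold or more and 0 in MerTK-, with a median of 1.24. All genes moved with them, and the share of 2-fold genes that were higher in MHCII+ was 66.0% as deposited, 22.7% centred on housekeeping genes and 98.8% centred on the hybridization controls. By construction, the carriers' median stayed 0.16 above that of all genes under each centring. Slc25a45 was higher in MHCII+ by 2-fold or more under each of the 5 scalings tried, and so was Slc25a10 on its values as measured. With the MerTK- value of Slc25a10 set to the floor, the difference was 0.94 centred on all genes above the floor and 0.63 centred on the housekeeping genes, short of 2-fold, and past it under the other 3. Slc25a10, Slc25a25 and Slc25a45 were also under a stricter floor taken from the negative controls, at 9.03 in MHCII+ and 9.66 in MerTK-. The MerTK- values of Slc25a1 (9.49) and Slc25a17 (8.39) were under that floor too. As the MHCII+ value of Slc25a17 was 9.51, this gene was not 2-fold higher in MHCII+ against the MerTK- floor of 9.66. Slc25a17 was at 0.97 centred on all genes, 0.67 centred on the housekeeping genes and 0.86 after quantile normalization. Slc25a1 and Slc25a25 were at 0.89 and 0.90 centred on the housekeeping genes and past 2-fold under the other 4. Slc25a37 was at -1.31 centred on the housekeeping genes and at 0.08 centred on the hybridization controls, so its direction depended on the zero point.

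**Figure D4:**
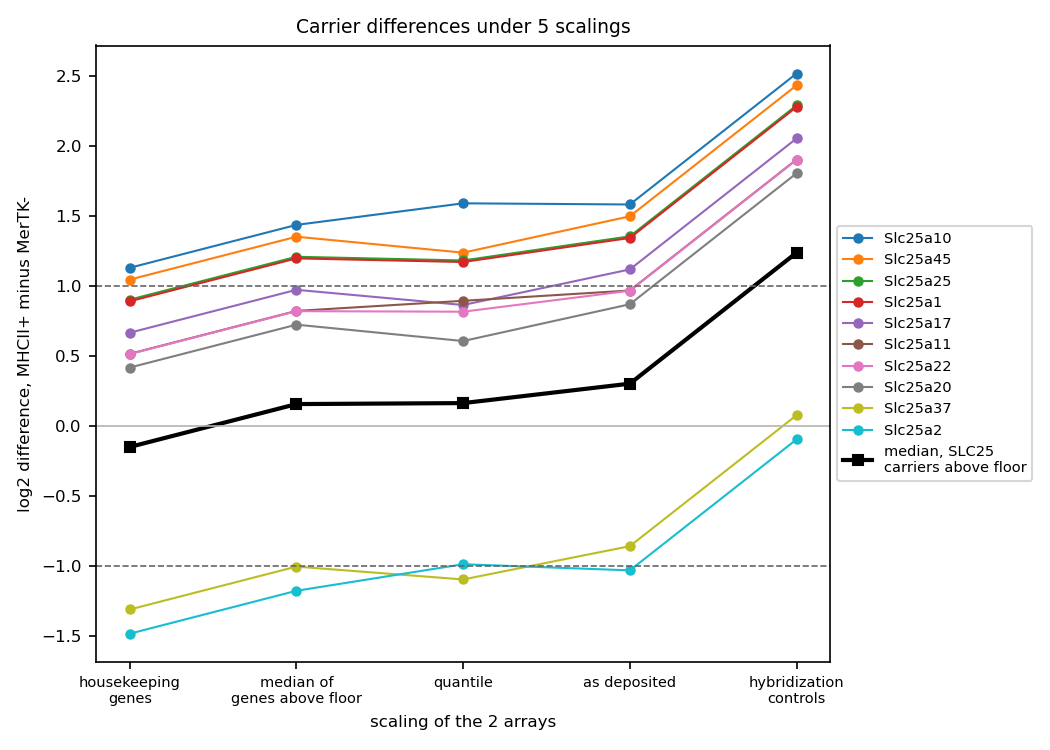
Difference in log2 intensity, MHCII+ minus MerTK- (vertical axis), of 10 carriers under 5 scalings of the arrays (horizontal axis), 1 line per carrier, with the median of the 33 carriers in black and 2-fold as broken lines. Slc25a45 stays above the upper line throughout and so does Slc25a10 as measured (0.63 centred on housekeeping genes with its MerTK- value set to the floor), while Slc25a37 lies at -1.31 centred on housekeeping genes and at 0.08 centred on hybridization controls.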

How the data were processed

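Total RNA of each sorted population was measured on a mouse Clariom S array per the study's methods, although the series text names an older array. The authors deposited log2 values after Robust Multiarray Average (RMA) processing with global scaling, and the submitters' notes name Affymetrix Expression Console. Deposited log2 values ran from 1.01 to 19.8 in MHCII+ and from 0.887 to 19.4 in MerTK-, and 337 and 331 probe sets lay above 16, the limit of a 16-bit scanner, so folds hold on the deposited scale only. Of 28846 probe sets, 19572 carried 1 symbol of the platform annotation, none several, and 2634 transcript probe sets were unnamed here. Where a gene had more than 1 probe set (55 genes, none a carrier), that of highest mean was kept.

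Differences, counts at 2-fold (the threshold of the study's methods) and medians were computed with Python 3.11.15, pandas 2.3.3 and NumPy 2.4.6, and figures with matplotlib 3.10.9; the script was tested on simulated data. The number of arrays, 1 per group, limits the precision. Alternatives were 4 other scalings, another floor and none, values under the floor set to it, the mean of probe sets, and thresholds of 1.5-fold and 3-fold. All measured carriers are named; of the other lists, up to 3 genes in each direction were named among those at least 2-fold apart. The members and lists were chosen with earlier results of these data known. Trem2+ and Lyve1+ macrophages were not analysed here.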

Additional observations from a re-analysis of the deposited data

How the results depend on the processing

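Of the 33 carriers above the floor, 5 were higher in MHCII+ by 2-fold or more and 1 in MerTK-, with a median of 0.30, and each of these moved with the scaling. The counts were 4 and 2 with a median of 0.156 when centred on all genes above the floor, 2 and 4 with a median of -0.15 when centred on the housekeeping genes, 22 and 0 with a median of 1.24 when centred on the hybridization controls, and 4 and 1 with a median of 0.163 after quantile normalization. Over all genes, 1407 were higher in MHCII+ by 2-fold or more and 725 in MerTK- as deposited, 549 and 1869 centred on the housekeeping genes and 5777 and 70 centred on the hybridization controls, and the share of these higher in MHCII+ was 66.0%, 22.7% and 98.8%. It was 51.0% centred on all genes and 54.5% after quantile normalization.

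In an alternative chosen after seeing the data, each scaling was joined with lower values set to the floor. Slc25a10 then was at 0.94 centred on all genes and 0.63 centred on the housekeeping genes, and Slc25a2 at 0.0374 centred on the hybridization controls. As measured, Slc25a2 was at -0.10 centred on the hybridization controls and -0.99 after quantile normalization. Slc25a37 passed 2-fold towards MerTK- centred on all genes (-1.004), centred on the housekeeping genes (-1.31) and after quantile normalization (-1.10), and Slc25a33 (-1.08) and Slc25a54 (-1.26) did so centred on the housekeeping genes.

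With no floor the 46 carriers gave 5 and 1, with a median of 0.0985. With lower values set to the floor the counts were 5 and 0 and the median 0.0993. A floor at the 95th percentile of 5222 negative controls, 9.03 in MHCII+ and 9.66 in MerTK-, left 14 carriers, with 2 and 0. Among the 5 carriers past 2-fold towards MHCII+, Slc25a10, Slc25a25 and Slc25a45 were under it. The other 2, Slc25a1 and Slc25a17, had MerTK- values under it, 9.49 and 8.39. Against the MerTK- floor of 9.66 Slc25a17, at 9.51 in MHCII+, was not 2-fold higher in MHCII+. At 1.5-fold the counts were 11 and 4, and at 3-fold 0 and 0. Taking the mean of a gene's probe sets changed no carrier. No paired analysis was possible because each group had 1 array. Of the negative controls, 3134 in MHCII+ and 2776 in MerTK- lay above the lower floor, so a value above it does not show expression.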
